A study of Mus musculus with 22 samples.

Results

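The ileum of XY mice given pulsed antibiotic (PAT) was compared with that of XY mice given sub-therapeutic antibiotic (STAT), using every array whose labels give these 2 treatments and the male sex: 5 PAT male arrays and 3 STAT male arrays, 8 of the 22 arrays in the series. All animals were of the NOD strain, inbred mice prone to spontaneous autoimmune diabetes, and total RNA came from the terminal ileum, the last stretch of the small intestine. The 5 control male arrays and the 9 female arrays, 3 for each treatment, served as reference and contributed to the estimate of the spread. For the drugs, their doses and timing, the age of the mice and the treatment of the controls, details were not given in the sources used here. Arrays are called PAT male 1 to 5 and STAT male 1 to 3 in the order of their accessions, so a number carries no meaning across groups. The labels do not say whether any RNA was pooled, so each p-value measures the spread between these samples. The whole tissue was measured, so fewer cells of a type and less RNA per cell cannot be told apart in any of the values below.

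Several of the genes concerned belong to a relay from the cell surface to the nucleus. Growth factors that bind the epidermal growth factor receptor activate the kinases ERK1 and ERK2 through RAS, RAF and MEK. Within minutes the kinases switch on immediate early genes, transcription factors such as Fos and Egr1 whose induction needs no new protein. The same pathway induces its own brakes, among them the dual-specificity phosphatases (Dusp) that strip phosphate from ERK, the Sprouty proteins, and Errfi1, which blocks the receptor itself. In the intestine this signalling supports renewal of the epithelium and repair after injury.

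The sequences below show promoter stretches of called genes from the immediate early, ERK feedback, ATF4 and CHOP, and cholesterol groups described further on, shown because factors with known elements act on these groups. They were read from the RefSeq table of mouse promoters on build GRCm38.p6, which covers 250 bases before to 50 bases after each annotated start, and each line gives the gene's own strand 5′ to 3′ with the matched element in capitals. The CArG box, the element bound by serum response factor, was found in Egr2 at chr10:67537777-67537826 on the plus strand, in Zfp36 at chr7:28379257-28379306 on the minus strand and in Dusp5 at chr19:53529043-53529092 on the plus strand, where a second match follows in lower case.
Egr2: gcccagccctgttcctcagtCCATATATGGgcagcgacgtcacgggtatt
Zfp36: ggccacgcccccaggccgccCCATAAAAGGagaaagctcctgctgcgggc
Dusp5: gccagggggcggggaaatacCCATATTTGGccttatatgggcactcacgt

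The cyclic AMP response element TGACGTCA, bound by CREB and ATF proteins, lay in Maff at chr15:79347471-79347518 on the plus strand, in Dusp1 at chr17:26508588-26508635 on the minus strand and in Errfi1 at chr4:150854999-150855046 on the plus strand.
Maff: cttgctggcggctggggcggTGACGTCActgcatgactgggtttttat
Dusp1: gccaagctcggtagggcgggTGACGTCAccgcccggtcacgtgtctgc
Errfi1: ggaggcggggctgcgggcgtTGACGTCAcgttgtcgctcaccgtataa

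The C/EBP-ATF response element TGATGCAA, bound by ATF4 with a C/EBP partner, lay on the opposite strand, and so appears as its reverse complement, in Atf3 at chr1:191183416-191183463 on the minus strand and in Chac1 at chr2:119351029-119351076 on the plus strand. The sterol regulatory element TCACNCCAC, bound by SREBP proteins, lay in Hmgcs1 at chr13:119690194-119690242 on the plus strand.
Atf3: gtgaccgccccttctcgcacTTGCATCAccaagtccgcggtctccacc
Chac1: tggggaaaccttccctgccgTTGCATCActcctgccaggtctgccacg
Hmgcs1: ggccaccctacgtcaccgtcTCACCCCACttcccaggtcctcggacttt

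Matches were searched on both strands and are a description of letters only. Genes were counted when any of their promoters held a match. A CArG box was present in 1.63% of all 32851 promoters in the table and in 1.81% of its 27025 genes. It was present in 3 of the 15 called genes of the immediate early and ERK feedback groups that the table holds. The cyclic AMP response element was present in 1.79% of all promoters, 2.03% of all genes and 3 of the same 15 genes. The C/EBP-ATF element was present in 0.895% of all promoters, 1.03% of all genes and 2 of the 7 ATF4 and CHOP targets called higher. It was present in 5 of the 19 members of that list in the table, called or not. Besides Atf3 and Chac1 these were Slc7a11 and Vldlr, which were not called, and Nupr1, which was called lower. The sterol element was present in 1.24% of all promoters, 1.44% of all genes and 1 of the 9 called cholesterol genes in the table.

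The 22 columns of log2 values correlated with each other at 0.9842 to 0.9972, and the sex labels of all arrays matched Xist, which read 6.0 to 7.75 in the 8 arrays compared and 12.07 to 12.60 in the female arrays. The ileal bile acid binding protein Fabp6 read 14.20 to 14.60 in the 8 arrays. STAT males 2 and 3 stood apart from STAT male 1 and from the other male arrays in a measure of RNA integrity, the signal of the beta-actin 3′ control probe set minus that of its 5′ probe set. This difference was 0.59 and 0.60 log2 in STAT males 2 and 3, against 0.29 in STAT male 1, 0.29 to 0.42 in the PAT males and 0.28 to 0.38 in the control males. Over the 5 and 3 arrays the difference was −0.15 (2-sided exact permutation test, adjusted p = 0.357 over 2 measures). The Gapdh measure was −0.25 in STAT male 1, −0.04 and −0.08 in STAT males 2 and 3 and −0.23 to −0.08 in the PAT males (difference of −0.04, adjusted p = 0.571 by the same exact permutation test). Its difference became 0.01 without STAT male 2. The smallest p that 5 against 3 arrays allow in this test is 0.0357 before adjustment, so 1 measure alone could not pass 0.05 after it.

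Over all 18193 genes, limma with Benjamini-Hochberg adjustment called 1585 genes different between PAT and STAT males at an adjusted p under 0.05, which is 8.71% of the genes tested. Of these, 632 were higher in PAT males (3.47% of all genes) and 953 were lower (5.24%). The rises were the larger changes, with 147 genes at least 2-fold higher and 14 at least 2-fold lower. In 360 of the genes called higher every PAT array lay above every STAT array, and in 655 of those called lower every PAT array lay below. Over all genes such a lack of overlap was seen in 4.51% with PAT above and in 7.08% with PAT below. The balance of the 2 directions moved with the scaling: 39.9% of the called genes were higher in the deposited values, 47.3% after quantile normalization was repeated and 32.2% after each array was centred on its median. It was 49.2% when all probe sets of a gene were averaged.

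The count rested on which STAT arrays entered. Leaving out STAT male 1 raised it to 2847 genes (15.6%), leaving out STAT male 2 lowered it to 254 and leaving out STAT male 3 to 300. Without PAT male 2 it was 879, and without each of the other PAT males 1261 to 2075. With STAT male 1 as the lone STAT array, whose spread was then taken from the other groups, 62 genes were called (0.341%), 12 higher (0.066% of all genes) and 50 lower (0.275%), of which 20 were among the 1585 (32.3% of the 62 and 1.26% of the 1585). Of the 1585 genes, 1564 kept their sign against STAT male 1, with a median size of 0.329 log2 against 0.511 in the full comparison, while the standard error was larger by a median factor of 1.515. The genes were called with STAT male 1 and the same PAT males in the fit, so the kept signs are no separate support. Against STAT male 1, 59.5% of the genes called higher had every PAT male above it, whereas the shares for STAT males 2 and 3 were 97.5% and 97.3%. Over all genes these shares were 14.6%, 23.3% and 22.6% for STAT males 1, 2 and 3. Of the genes called lower, STAT male 1 lay above every PAT male in 71.4%, STAT male 2 in 97.3% and STAT male 3 in 98.2%. Over all genes STAT males 1, 2 and 3 lay above every PAT male in 23.3%, 22.4% and 23.6%. The genes were called from these same arrays, so high shares among them follow in part from their choice. When the beta-actin integrity measure was a covariate, 199 genes were called, 154 of them among the 1585 (77.4% of the 199 and 9.72% of the 1585). All 1585 genes kept their sign in this refit of the arrays from which they were called. Their median size was 0.361 log2, and their standard errors were larger by a median factor of 1.211. Of the 140 called genes that the naming rule gave, 34 kept their call whichever of the 8 arrays was left out. Without STAT male 2 and STAT male 3 in turn 100 and 96 lost it, without PAT male 2 51 lost it, and without each of the other arrays 4 to 37 did. The values that follow give each STAT array apart.

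**Figure D1:**
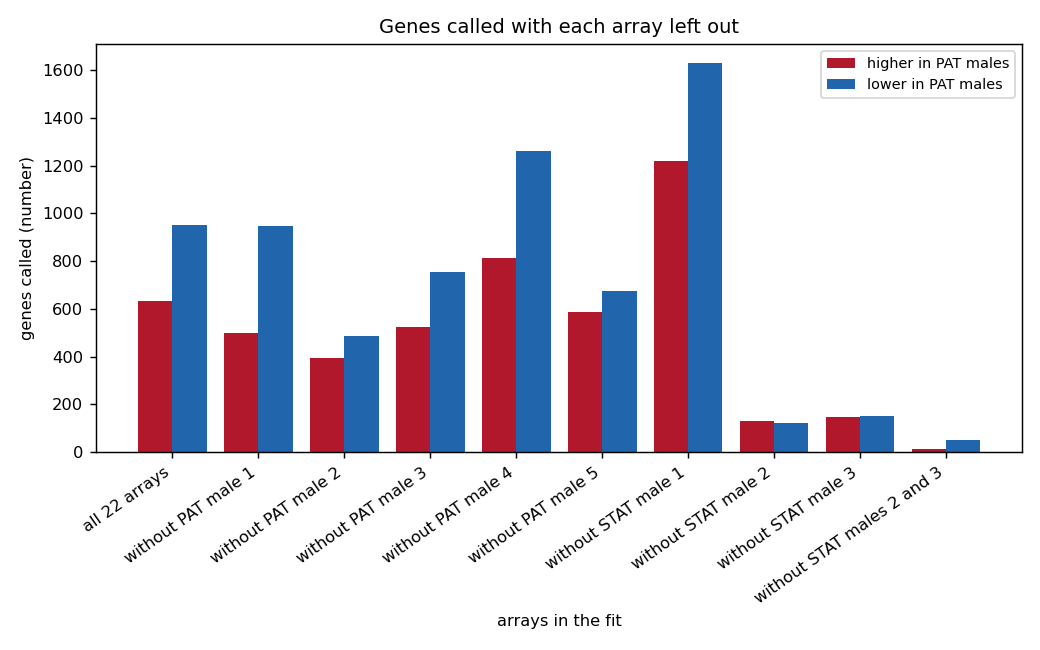
Number of genes called at an adjusted p under 0.05 in PAT males against STAT males (y axis), higher in red and lower in blue, in the fit of all 22 arrays and with arrays left out (x axis). The bars fall to 132 and 122 without STAT male 2 and to 12 and 50 without STAT males 2 and 3, and reach 1219 and 1628 without STAT male 1.

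The gene that differed most was Rab30, a small GTPase of the Golgi apparatus. It read 13.14, 13.15, 12.39, 11.65 and 11.72 log2 in PAT males 1 to 5 and 7.90, 7.14 and 7.88 in STAT males 1 to 3, and the control males read 7.38 to 8.69 with a median of 8.16. Every PAT male was far above every STAT male, and the STAT males lay within or just under the control range. The difference was 4.77 ± 0.39 log2 (SE, n = 5 and 3), which is 27.4-fold, with an adjusted p of 8.7e-07 by limma. It was 4.51 against STAT male 1 alone and stayed between 4.52 and 4.96 whichever of the 8 arrays was left out. In females the difference was 3.78 (adjusted p = 0.00013).

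Several other genes were higher against each of the 3 STAT arrays and kept their call whichever of the 8 arrays was left out. Tcf23, a transcription factor of the basic helix-loop-helix family, read 8.48 to 8.98 in PAT males against 7.32, 7.40 and 7.70 in STAT males (1.22 ± 0.13, adjusted p = 1.6e-05 by limma). Chka, the choline kinase that starts phosphatidylcholine synthesis, read 10.42 to 11.61 against 9.10, 8.39 and 8.34 (2.42 ± 0.28, adjusted p = 6.5e-05). These 2 genes and Rab30 were also called with STAT male 1 as the lone STAT array, at 1.37, 1.93 and 4.51. Zfand2a, an arsenite-inducible partner of the proteasome, read 10.09 to 12.03 against 9.28, 8.34 and 8.38 (2.40 ± 0.31). Utp14b, involved in ribosomal RNA processing, read 8.18 to 10.05 against 7.11, 6.32 and 6.68 (2.41 ± 0.40). Bhlhe40, a clock-linked repressor, read 9.66 to 11.21 against 9.33, 8.91 and 8.94 (1.58 ± 0.23). The uncharacterised gene 2010003K11Rik read 10.12 to 11.18 against 9.48, 7.65 and 8.37 (2.29 ± 0.31). PAT males lay above all STAT males for each of these genes.

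**Figure D2:**
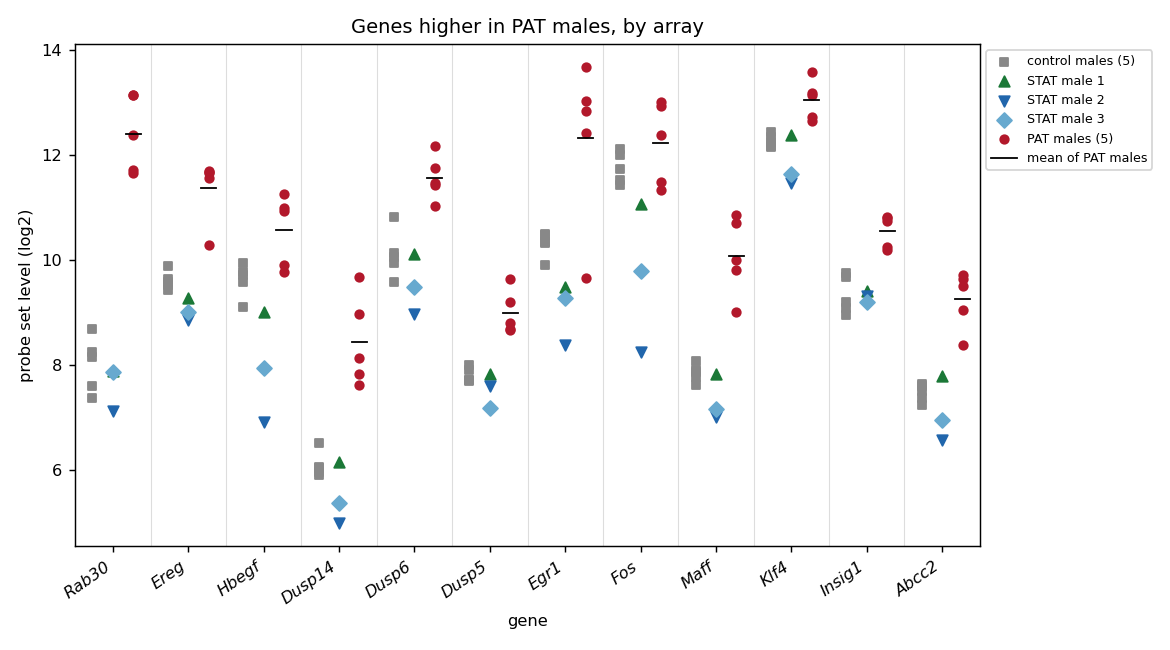
Level of 12 genes (x axis) in each male array, as log2 probe set signal (y axis). Grey squares are control males, green and blue symbols the 3 STAT males, red dots the PAT males, and the black line is the PAT mean. Rab30 reads 11.65 or more in PAT males and 7.90 or less in STAT males, and in Egr1 and Ereg PAT male 5 sits below the other PAT males.

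The 50 gene lists were chosen with earlier results of these data known, so their order by calls is a description only. Among them the ERK feedback list, which also holds receptor ligands, had the highest share of calls. Of 17 measured genes, 11 were higher in PAT males and 0 were lower, with a median difference of 1.47 log2 over the list against 0.01 over all genes. The median was 1.18 against STAT male 1 alone and 1.62 without it. The mean level of the list, given as the deviation from the 22-array mean, was 0.775 to 1.126 in PAT males 1 to 4 and −0.002 in PAT male 5, against −0.307, −0.776 and −0.579 in STAT males 1, 2 and 3 and −0.345 to −0.091 in control males. PAT male 5 was thus nearer to the control males than to the other PAT males, yet above all 3 STAT males. The number of members called was 7 and 8 without STAT males 2 and 3, and 1 with STAT male 1 as the lone STAT array. With the beta-actin measure as a covariate it was 6, and the counts of the other lists in that fit are given with the layer markers.

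The receptor ligands of this group were Ereg (epiregulin) and Hbegf (heparin-binding EGF-like growth factor). Ereg read 11.66, 11.56, 11.71, 11.69 and 10.28 in PAT males 1 to 5 against 9.29, 8.86 and 9.02 in STAT males, with control males at 9.43 to 9.89. The difference was 2.33 ± 0.24 (adjusted p = 1.6e-05 by limma), and it was 2.09 against STAT male 1 alone (adjusted p = 0.012 by limma). Hbegf read 11.003, 9.92, 11.26, 10.95 and 9.77 against 9.01, 6.92 and 7.96, a difference of 2.62 ± 0.43 (adjusted p = 0.0012). All 3 STAT males lay below the control males, which read 9.12 to 9.95 for Hbegf, and the fitted STAT difference from control was −1.67, not called.

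The phosphatases Dusp14, Dusp6 and Dusp5 did not overlap between PAT and STAT males. Dusp14 read 8.98, 9.69, 7.83, 7.63 and 8.13 in PAT males against 6.16, 4.99 and 5.38 in STAT males (2.94 ± 0.41, adjusted p = 0.0004 by limma). Dusp6, which acts on ERK in the cytoplasm, read 11.76, 12.17, 11.42, 11.48 and 11.03 against 10.12, 8.97 and 9.50 (2.04 ± 0.26, adjusted p = 0.00016). Dusp5, its nuclear counterpart, read 9.21, 9.65, 8.81, 8.67 and 8.69 against 7.83, 7.60 and 7.18 (1.47 ± 0.18, adjusted p = 0.00015). These 3 calls held whichever array was left out. STAT male 1 was the highest STAT male for each of the 3 genes and still lay under the lowest PAT male.

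Dusp1 and Dusp10, which act mainly on the stress kinases p38 and JNK, were high in PAT males 1 to 4 only. Dusp1 read 12.27, 10.83, 11.18, 11.01 and 8.78 in PAT males against 8.96, 8.05 and 8.68 in STAT males (2.25 ± 0.49), and Dusp10 read 9.75, 10.30, 8.72, 8.47 and 6.61 against 6.90, 6.26 and 6.59 (2.19 ± 0.52). PAT male 5 thus fell within the STAT range for both. The call of Dusp1 was lost without STAT male 2, and that of Dusp10 without STAT male 2 or 3, with adjusted p up to 0.079 and 0.095 by limma. Dusp4 (0.88 ± 0.19) and the Sprouty gene Spry2 (0.97 ± 0.23) were also higher, and their calls were lost without STAT male 2 or 3 (adjusted p up to 0.099 and 0.07).

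Phlda1, a target of the pathway, read 11.35, 11.41, 11.17, 11.35 and 9.33 in PAT males against 8.81, 8.82 and 8.72 in STAT males (2.14 ± 0.35, adjusted p = 0.0011 by limma). Its difference against STAT male 1 alone was 2.12, nearly the same as against all STAT males. Errfi1 read 12.44, 12.02, 11.94, 11.84 and 10.30 against 10.23, 9.50 and 9.61 (1.92 ± 0.32, adjusted p = 0.0015). The 6 members not called were Spred1, Spred2, Spry1, Spry4, Etv4 and Etv5, and the difference for Etv5, an ERK-induced transcription factor, was −0.52 (adjusted p = 0.067), the lowest of the list.

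Immediate early transcription factors followed the same array pattern. Of 20 measured genes 11 were higher and 0 lower, all 20 fitted differences were above 0, and the median was 0.83 log2 (0.66 against STAT male 1 alone). The list level was 1.253, 0.731, 0.842 and 0.68 in PAT males 1 to 4 but −0.327 in PAT male 5, which lay below STAT male 1 at −0.28 and above STAT males 2 and 3 at −0.916 and −0.708. The control males spanned −0.275 to 0.007, so all 3 STAT males and PAT male 5 were below them. Calls fell from 11 to 5 without STAT male 2 and to 6 without STAT male 3, and numbered 14 without PAT male 5.

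Egr1, a zinc finger factor induced by ERK, read 13.68, 12.42, 12.85, 13.03 and 9.66 in PAT males 1 to 5 and 9.49, 8.39 and 9.28 in STAT males. The control males read 9.91 to 10.51, so PAT male 5 lay below them and STAT males below PAT male 5. The difference was 3.27 ± 0.57 log2, or 9.67-fold (adjusted p = 0.0019 by limma). Against STAT male 1 it was 2.84, and against controls the PAT males differed by 2.02 and the STAT males by −1.26, of which the second was not called. Maff, a small Maf protein, read 10.86, 10.71, 10.00, 9.81 and 9.01 against 7.83, 7.02 and 7.17 (2.74 ± 0.32, adjusted p = 8.4e-05). It was called against STAT male 1 alone as well (2.24, adjusted p = 0.049 by limma).

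Fos, the AP-1 subunit, read 12.93, 11.33, 13.01, 12.39 and 11.48 in PAT males and 11.07, 8.25 and 9.80 in STAT males, against 11.44 to 12.11 in control males. The fitted difference from control was 0.46 in PAT males and −2.06 in STAT males, and neither was called. The PAT-to-STAT difference was 2.52 ± 0.50, and without STAT male 2 its call was lost (1.79, adjusted p = 0.067 by limma). Atf3 read 11.92, 11.44, 11.36, 10.36 and 7.99 against 9.18, 6.96 and 6.96 (2.92 ± 0.62), with its call lost without STAT male 2 or 3 (adjusted p up to 0.073). Its PAT male 5 value lay below STAT male 1 and below all control males.

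Junb (1.64 ± 0.25), Klf4 (1.22 ± 0.20) and the mRNA-decay factor Zfp36 (1.83 ± 0.33) were higher in PAT males without overlap and held in every left-out fit. Fosl1 was 2.04 ± 0.52 higher, Egr2 1.67 ± 0.48, Fosb 0.72 ± 0.22 and Ier2 0.68 ± 0.16, and each of these 4 calls was lost without STAT male 2 or 3. The call of Egr2 was also lost without PAT male 1, 3 or 4. That of Fosb was also lost without STAT male 1 and without PAT male 1, 2 or 3. Egr2 ranged from 8.04 in PAT male 1 to 4.55 in PAT male 5. Jun itself was not called at 0.53 ± 0.38, and was −0.13 with the beta-actin covariate.

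**Figure D3:**
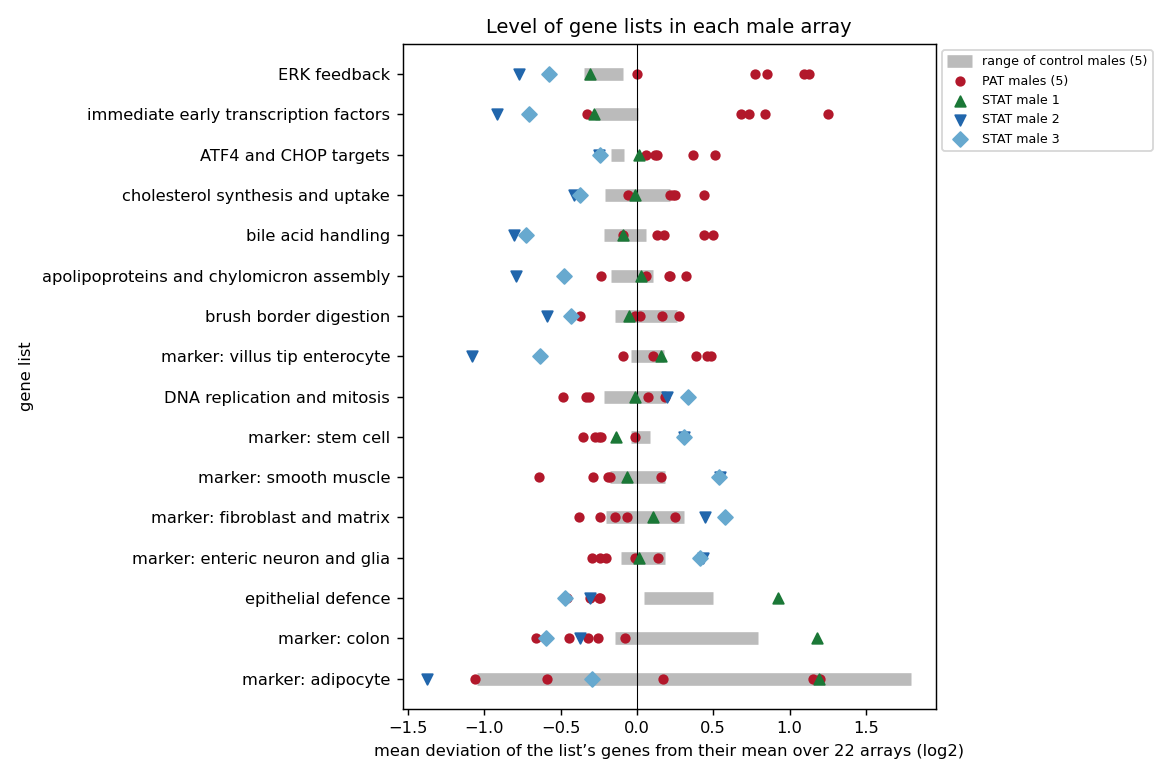
Level of 16 gene lists (y axis) in each male array, as the mean log2 deviation of the list's genes from their mean over the 22 arrays (x axis). The grey bar is the range of the 5 control males, red dots are PAT males, and the green triangle is STAT male 1. STAT males 2 and 3 (blue) stand below the control range for the villus-tip list and above it for the smooth muscle list, while STAT male 1 stands above it for the defence and colon lists at 0.926 and 1.182.

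Targets of ATF4 and CHOP, the factors that carry the integrated stress response, were called higher in 7 of 20 genes and lower in 1. The median was 0.27 log2, against 0.20 for STAT male 1 alone. Atf3 has been described above. Chac1, which degrades glutathione, read 9.10, 6.66, 7.21, 8.48 and 7.17 in PAT males against 6.13, 6.16 and 5.72 in STAT males (1.72 ± 0.37, adjusted p = 0.0083 by limma), with no overlap. PAT males 1 and 4 were the high arrays. Atf4 itself was 0.72 ± 0.16 higher without overlap, and the pseudokinase Trib3 0.82 ± 0.16 higher with STAT male 1 inside the PAT range.

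The phosphatase adaptor Ppp1r15a (0.95 ± 0.28), the C/EBP factor Cebpb (0.52 ± 0.13) and the amino acid transporter subunit Slc3a2 (0.46 ± 0.14) were also higher. Nupr1 was lower (−0.62 ± 0.16). The calls of Ppp1r15a, Slc3a2 and Nupr1 were lost in 5, 6 and 4 of the 8 left-out fits, some of them without a PAT male. Ddit3, which encodes CHOP, was not called at 0.46 ± 0.17. Without STAT male 2, and likewise without STAT male 3, 1 member was called higher. Of 20 genes for folding in the endoplasmic reticulum 1 was called, Dnajb9 at 0.97 ± 0.20 (lost without STAT male 3, adjusted p = 0.052 by limma), and the list median was 0.01. Its chaperone Hspa5 read 13.47 to 13.74 in PAT males and 13.40 to 13.45 in STAT males. In the heat shock list Zfand2a was the 1 call among 16 genes. Of these genes 14 had a fitted difference below 0, and the list median was −0.21.

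Cholesterol synthesis and uptake genes were higher in 11 of 21 cases and lower in 0, with a median of 0.54 log2. Cells make these enzymes when sterol in the endoplasmic reticulum is low, since the escort protein SCAP then carries the transcription factor SREBP2 to the Golgi apparatus, where it is released. Insig1, which holds SCAP and SREBP in the endoplasmic reticulum, read 10.82, 10.80, 10.75, 10.19 and 10.26 in PAT males and 9.41, 9.32 and 9.21 in STAT males (1.25 ± 0.20, adjusted p = 0.0012 by limma). All 3 STAT arrays agreed closely there, and the difference against STAT male 1 was 1.15. Control males read 8.96 to 9.75, so the STAT males lay within the control range.

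The enzymes of the list differed less. Msmo1 was 0.89 ± 0.22 higher, Sqle 0.80 ± 0.16, Fdft1 0.73 ± 0.20, Cyp51 0.72 ± 0.18, Lss 0.67 ± 0.16, Sc5d 0.66 ± 0.17, Hmgcs1 0.61 ± 0.15 and Idi1 0.49 ± 0.14, and Srebf2, which encodes the factor, was 0.47 ± 0.11 higher. Hmgcs1 read 13.18 to 13.61 in PAT males against 12.97, 12.61 and 12.69 in STAT males. The list median was 0.28 against STAT male 1 alone. Without STAT male 2 the 1 call was Insig1, and without STAT male 3 the 2 calls were Insig1 and Sqle. The calls of Fdft1 and Idi1 were also lost without PAT male 1 or 2.

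Bile acid genes were higher in 4 of 13 cases. The ileum takes up bile acids through Slc10a2, exports them to blood through Slc51a and Slc51b, and answers them with the hormone Fgf15. Fgf15 read 8.90, 7.51, 7.38, 8.01 and 11.09 in PAT males against 5.52, 5.39 and 5.11 in STAT males and 5.73 to 7.65 in control males. PAT male 5 was the highest array, and the STAT males were below all controls. The difference was 3.24 ± 0.74 log2 (adjusted p = 0.012 by limma), 3.06 against STAT male 1, and its call was lost without STAT male 2 or 3 (adjusted p up to 0.071). Nr0b2 (SHP), another target of the bile acid receptor, read 9.20 in PAT male 5 and 5.95 to 6.83 in the other PAT males, against 5.23 to 5.47 in STAT males. Its difference of 1.53 ± 0.50 was not called (adjusted p = 0.061).

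Abcc2, an export pump for conjugated compounds, read 9.64, 9.51, 9.05, 8.39 and 9.72 in PAT males against 7.80, 6.58 and 6.96 in STAT males (2.15 ± 0.31, adjusted p = 0.00041 by limma), and held in every left-out fit. Slc10a2 was 1.23 ± 0.33 higher and Slc51b 0.70 ± 0.21, with STAT male 1 inside the PAT range for both. Their calls were lost in 3 and 6 of the 8 left-out fits, some of them without a PAT male. Slc51a was not called at 0.35 ± 0.14. Without STAT male 2, and likewise without STAT male 3, Abcc2 was the 1 member called.

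In a second set of groups STAT males 2 and 3, but not STAT male 1, lay away from the PAT males. Apolipoprotein and chylomicron genes, which package dietary fat for export, were higher in 8 of 16 cases. The median was 0.40 log2 and was 0.02 against STAT male 1 alone. The list level was −0.239 to 0.32 in PAT males and 0.026 in STAT male 1, but −0.79 and −0.477 in STAT males 2 and 3, below the control range of −0.168 to 0.107. Apoa4, an apolipoprotein induced by fat absorption, read 12.71, 12.35, 12.71, 12.09 and 13.34 in PAT males and 11.89, 8.41 and 10.60 in STAT males (2.34 ± 0.49, adjusted p = 0.0067 by limma), and its call was lost without STAT male 2 (1.39, adjusted p = 0.064). Apoa1 read 14.26 to 14.65 in PAT males and 14.53, 13.43 and 13.86 in STAT males, so STAT male 1 lay among the PAT males.

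Apoc3 was 1.49 ± 0.35 higher, Apoc2 1.20 ± 0.33, Apob 0.68 ± 0.16, Plin3 0.56 ± 0.17, Mogat2 0.52 ± 0.15 and Fabp2 0.37 ± 0.09. The calls of Plin3 and Mogat2 were each lost in 6 of the 8 left-out fits, that of Apoa1 in 5 and that of Apoc2 in 4. These included fits without a PAT male. Apob was the member whose difference changed least against STAT male 1, at 0.60. Without STAT male 2 there was no call in the list (0 of 16) and without STAT male 3 there were 2.

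Markers of the villus tip, where the oldest enterocytes sit, were higher in 9 of 16 cases with a median of 0.53 log2, and 0.13 against STAT male 1 alone. Clca4a read 13.94, 14.10, 13.72, 13.42 and 13.62 in PAT males and 13.36, 10.32 and 11.92 in STAT males (1.89 ± 0.39). The cell-cycle inhibitor Cdkn1a read 12.95, 12.85, 12.73, 12.45 and 12.29 against 11.81, 11.12 and 11.13 (1.30 ± 0.18, adjusted p = 0.00034 by limma) and is the member, with Klf4, that held in every left-out fit. Ezr (0.69 ± 0.15), Krt20 (0.49 ± 0.13) and Vil1 (0.38 ± 0.11), components of the microvillus and cytoskeleton, were higher as well, with calls lost without STAT male 2 or 3. The calls of Krt20 and Vil1 were also lost without PAT male 1, 2 or 3. Fos, Klf4, Apoa4 and Apoa1 belong to this list and to the groups above. The villus-tip level was −1.079 and −0.633 in STAT males 2 and 3 and 0.157 in STAT male 1, against −0.089 to 0.483 in PAT males. Of 18 brush border enzymes 3 were higher, 10 without STAT male 1 and 0 without either of the others.

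Cell division genes were lower in PAT males in 10 of 29 cases and higher in 0. The median was −0.40 log2 and −0.19 against STAT male 1 alone. Kif11, a spindle motor, read 6.65, 6.64, 6.72, 7.18 and 7.36 in PAT males and 7.47, 7.89 and 8.04 in STAT males (−0.89 ± 0.18, adjusted p = 0.0063 by limma). Mki67, the proliferation marker, read 9.31, 8.79, 9.10, 9.73 and 9.65 against 9.56, 10.30 and 10.39 (−0.77 ± 0.20). PAT males 4 and 5 overlapped with STAT male 1 for Mki67, and the list level was 0.069 and 0.182 in these 2 arrays against −0.487 to −0.315 in PAT males 1 to 3. Top2a (−0.76 ± 0.19), Ccna2 (−0.67 ± 0.17), Birc5 (−0.59 ± 0.18), Aurka (−0.57 ± 0.17), Plk1 (−0.52 ± 0.15) and Ccnb2 (−0.48 ± 0.12) were lower too. The calls of Birc5 and Aurka were each lost in 6 of the 8 left-out fits and that of Plk1 in 5, some of them without a PAT male. The list had 0 calls without STAT male 2 and 0 without STAT male 3. Some division genes outside the list kept their call in every left-out fit, the mitotic kinesin Kif20a (−0.81 ± 0.15) and Esco2, which joins sister chromatids (−1.27 ± 0.23).

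Stem cell markers of the crypt base were lower in 3 of 14 cases. Ascl2, the Wnt-responsive factor of the stem cell, read 6.40, 6.40, 6.78, 6.46 and 7.43 in PAT males and 7.36, 7.75 and 7.86 in STAT males (−0.96 ± 0.18, adjusted p = 0.0035 by limma) and held in every left-out fit. The control males read 7.29 to 7.77, and PAT males differed from them by −0.85. Znrf3 (−0.52 ± 0.15) and Slc12a2 (−0.45 ± 0.13) were lower, with calls lost without STAT male 2 or 3. The call of Znrf3 was also lost without PAT male 1 or 2, and that of Slc12a2 without PAT male 2, 3 or 5. Lgr5, the receptor that defines these cells, read 7.57 to 8.14 in PAT males and 7.67, 8.80 and 8.75 in STAT males and was not called (−0.64 ± 0.21, adjusted p = 0.062). Its difference was 0.10 against STAT male 1 alone. Olfm4 (−0.48) and Smoc2 (−0.54) showed the same split among STAT males and were not called.

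Markers of the muscle and connective tissue layers moved with STAT males 2 and 3. All 17 smooth muscle markers had a fitted difference below 0, of which 2 were called lower, Flna (−0.80 ± 0.22) and Myh11 (−0.78 ± 0.22). Their list level was 0.543 and 0.535 in STAT males 2 and 3, against −0.064 in STAT male 1, −0.64 to 0.158 in PAT males and −0.174 to 0.185 in control males. The fibroblast and matrix list had 4 of 19 lower, Fn1 (−0.79 ± 0.23), Lum (−0.74 ± 0.21), Col1a2 (−0.72 ± 0.22) and Postn (−0.72 ± 0.22), and levels of 0.448 and 0.574 in STAT males 2 and 3 against 0.106 in STAT male 1. The enteric neuron and glia list had 4 of 17 lower. Its first gene, the neuropeptide Vip, read 8.92, 9.18, 8.54, 9.56 and 8.94 in PAT males against 9.81, 10.41 and 10.15 in STAT males (−1.10 ± 0.23, adjusted p = 0.0065 by limma), and Snap25, Ret and Ncam1 were lower by −0.73, −0.65 and −0.60. Without STAT male 1 the calls rose to 9, 11 and 10 for these 3 lists, and with it as the lone STAT array there were 0 in each. The calls named here were lost without STAT male 2, and all but that of Vip also without STAT male 3. All but that of Vip were also lost without 1 or more of the PAT males.

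The levels of these layer markers, of the villus-tip list and of the beta-actin measure therefore all set STAT males 2 and 3 apart from the other male arrays. The beta-actin measure was fitted as a covariate, and the share of all genes called then fell from 8.71% to 1.09%. The numbers of called members likewise fell in most lists. They went from 11 to 6 for ERK feedback, 11 to 3 for immediate early and 7 to 0 for ATF4 and CHOP genes. They went from 11 to 1 for cholesterol, 4 to 1 for bile acid and 8 to 0 for apolipoprotein genes. For villus-tip markers they went from 9 to 2, for brush border enzymes from 3 to 0, for cell division genes from 10 to 0 and for stem cell markers from 3 to 0. The fibroblast and neuron lists went from 4 to 0 each, while the 5 lower calls among epithelial defence genes remained 5 in number. The part of the layer and villus-tip markers in these differences was not tested. The fat cell markers varied from −1.377 in STAT male 2 to 1.201 in PAT male 3 and from −1.046 to 1.799 in control males. Adipoq alone read 4.74 in STAT male 2 and 10.95 in STAT male 1. Its difference between PAT and STAT males was 0.23 ± 1.83.

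**Figure D4:**
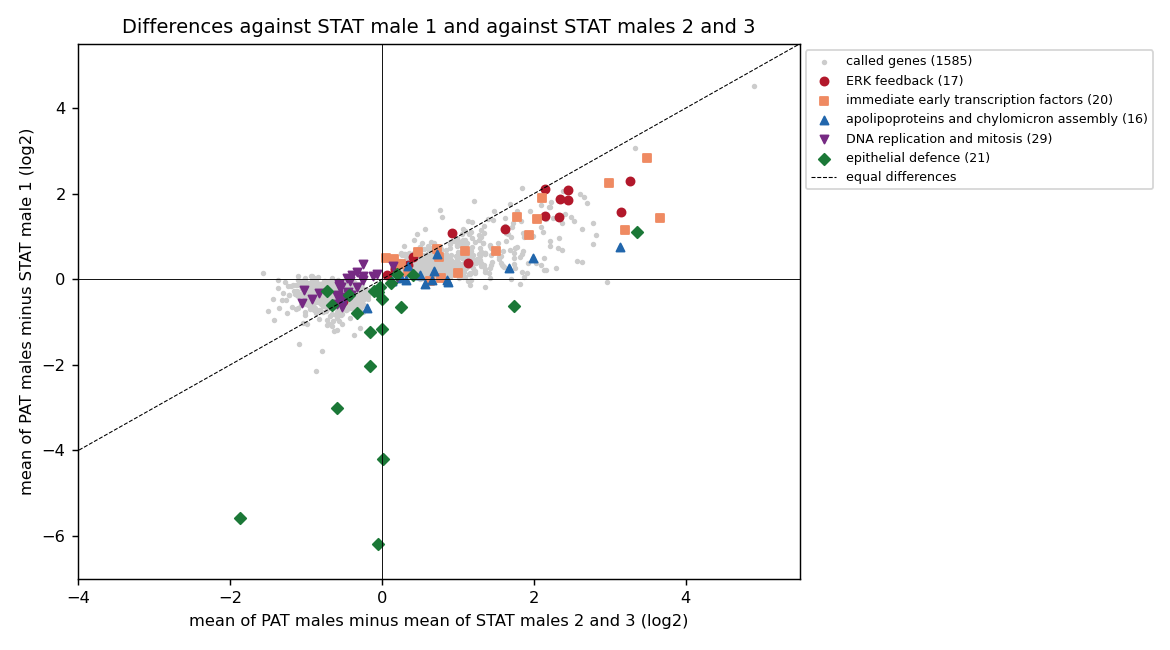
Difference of the PAT male mean from the mean of STAT males 2 and 3 (x axis, log2) and from STAT male 1 (y axis, log2) for the 1585 called genes in grey and for all measured members of 5 lists in colour. The same PAT mean enters both axes. The ERK feedback genes have a median of 1.18 on the y axis and the apolipoprotein genes one of 0.02, and the defence gene Retnlb lies at −6.19.

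Epithelial defence genes divided the STAT males the other way. Of 21 measured genes 5 were lower in PAT males and 1 was higher, and the list level was 0.926 in STAT male 1, −0.311 and −0.469 in STAT males 2 and 3, −0.471 to −0.242 in PAT males and 0.049 to 0.497 in control males. Saa1, an acute-phase protein made by the epithelium in response to bacteria, read 6.91, 8.38, 7.24, 8.95 and 7.61 in PAT males and 13.40, 10.51 and 8.87 in STAT males, against 10.84 to 12.63 in control males. The difference was −3.11 ± 0.95 (adjusted p = 0.045 by limma), and it ranged from −4.14 to −1.87 over the left-out fits, with the call lost without STAT male 1 or 2 and without each of PAT males 1, 2, 3 and 5.

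The chemokine Ccl28 read 9.24 to 9.88 in PAT males against 10.21, 10.36 and 10.17 in STAT males (−0.64 ± 0.13), and Pigr, the receptor that carries IgA across the epithelium, 12.76 to 13.27 against 13.40, 13.55 and 13.38 (−0.41 ± 0.10). For these 2 genes the 3 STAT arrays agreed and stood above every PAT male. Yet both calls were lost without STAT male 2, and that of Pigr also without STAT male 3 (adjusted p up to 0.062 and 0.12 by limma). Other probe sets of Ccl28 differed by 0.02 and −0.14 and were not called. The lectins Reg1 (−0.58 ± 0.16) and Reg3g (−0.49 ± 0.15) were lower without overlap. The call of Reg1 was lost without STAT male 2 or 3 and without PAT male 2 or 3. That of Reg3g was lost in 7 of the 8 left-out fits, all but the fit without PAT male 4 (adjusted p up to 0.18 by limma). Sprr1a, a cornified envelope protein, was higher, at 8.76, 10.36, 7.45, 7.91 and 9.52 against 7.70, 5.32 and 5.57 (2.60 ± 0.60), with STAT male 1 inside the PAT range and the call lost without STAT male 2 or 3.

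Other genes set STAT male 1 apart from the other 7 of the 8 arrays compared. Retnlb, a goblet cell protein active against bacteria, read 11.90 in STAT male 1, 6.82 and 4.73 in STAT males 2 and 3 and 4.79 to 6.82 in PAT males, and its difference was −2.10 ± 1.13 (adjusted p = 0.26 by limma). Saa3 read 11.41, 7.30 and 7.10 in STAT males and 6.54 to 7.49 in PAT males (−1.39 ± 0.67, adjusted p = 0.21). B3galt5, a glycosyltransferase, read 9.26, 5.01 and 5.13 against 5.17 to 5.56. Control males read 6.29 to 8.13 for B3galt5, below STAT male 1 and above the other 7 arrays. The PAT males differed from these controls by −1.77 (adjusted p = 0.0495 by limma). Mal, an apical sorting protein, read 10.60, 6.62 and 6.63 against 6.72 to 7.15. Sptssb, a subunit of the enzyme that starts sphingolipid synthesis, read 10.54, 6.09 and 5.68 against 5.86 to 6.49. None of the 5 was called in the full comparison, and all 5 were called with STAT male 1 as the lone STAT array, at −6.19, −4.19, −3.92, −3.69 and −4.33 for Retnlb, Saa3, B3galt5, Mal and Sptssb. Without STAT male 1 the differences for Saa3, B3galt5, Mal and Sptssb were 0.02, 0.27, 0.28 and 0.33. Saa2 (9.20, 6.85 and 6.70), Fut2 (8.34, 6.74 and 6.20) and Tlr2 (7.29, 6.21 and 6.21) had the same order of STAT arrays and were not called in the full comparison.

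Colon markers were high in the same array. The list level was 1.182 in STAT male 1, −0.373 and −0.594 in STAT males 2 and 3 and −0.663 to −0.076 in PAT males, and the control males spanned −0.142 to 0.796. Car1, a carbonic anhydrase of the large intestine, read 14.50 in STAT male 1, 8.22 and 6.49 in the other STAT males, 5.88 to 12.14 in PAT males and 6.19 to 14.23 in control males. Aqp8 read 9.66 in STAT male 1 and 4.32 to 5.55 in the other 7 arrays, and reached 9.34 in a control male. Saa1 and B3galt5 are members of this list. The part of colon markers in the defence differences was not tested.

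**Figure D5:**
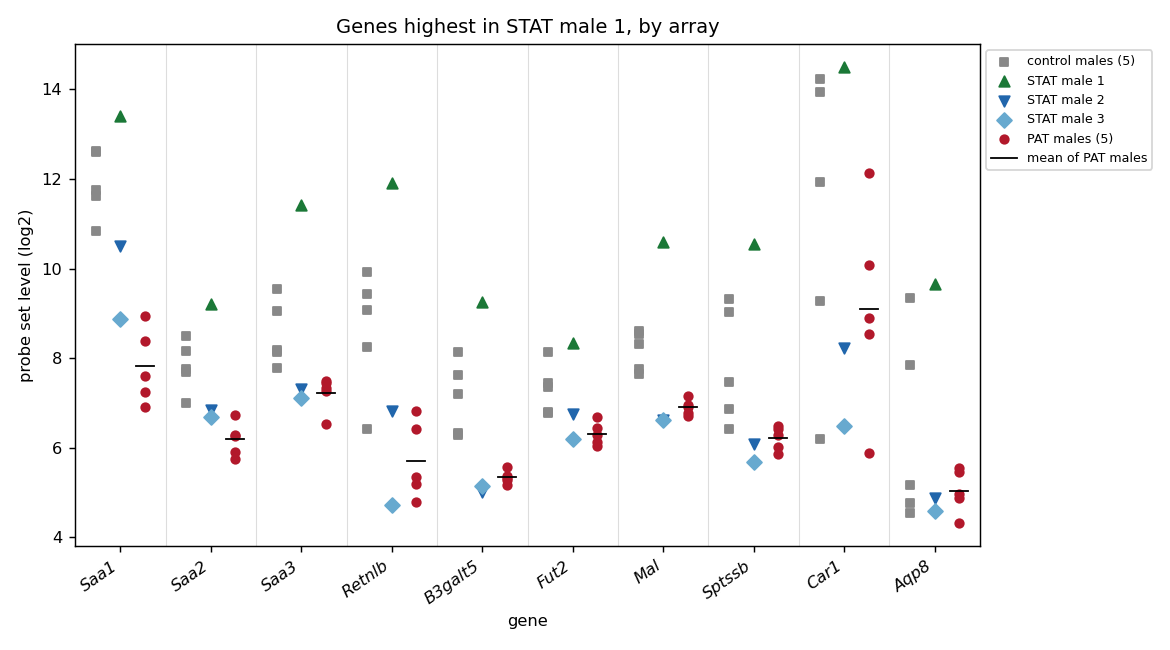
Level of 10 genes (x axis) in each male array, as log2 probe set signal (y axis), with grey squares for control males, green and blue symbols for the 3 STAT males, red dots for PAT males and a black line for the PAT mean. STAT male 1 is the highest of the 13 arrays for each gene, with Retnlb at 11.90 there and at 6.82 and 4.73 in STAT males 2 and 3.

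A few genes were lower against every STAT array and kept their call in every left-out fit. Edn2 (endothelin-2) read 7.49, 7.92, 8.26, 7.67 and 7.98 in PAT males against 9.38, 9.26 and 8.67 in STAT males (−1.24 ± 0.21, adjusted p = 0.0016 by limma). Exph5, a Rab27 effector, read 8.39 to 8.90 against 9.64, 9.63 and 9.67 (−1.03 ± 0.13, adjusted p = 0.00016), with the 3 STAT arrays all but equal. Dmbt1, a mucosal scavenger protein that binds bacteria, read 11.53 to 12.41 against 13.49, 12.68 and 12.54 (−1.08 ± 0.22, adjusted p = 0.0051). These 3 genes were also called against STAT male 1 alone, at −1.51, −1.02 and −1.67. Cenpl, a centromere protein, read 5.95 to 6.92 against 7.39, 7.29 and 7.37 (−1.01 ± 0.17). Tnfsf10 (TRAIL), a death ligand, read 7.45 to 8.12 against 8.34, 8.94 and 8.84 (−1.0 ± 0.19), and Clca3a2 5.40 to 6.03 against 6.52, 7.50 and 7.04 (−1.25 ± 0.19). The fall of G6pc was less stable. This gene, which encodes the last enzyme of glucose production, read 7.08, 6.21, 8.04, 6.43 and 6.36 against 8.97, 7.71 and 7.69, with control males at 9.12 to 10.39. Its difference was −1.30 ± 0.39 (adjusted p = 0.043), and the call was lost without each array but PAT male 3 (adjusted p up to 0.17).

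Against control males, limma called 1641 genes in PAT males (9.02%) and 0 in STAT males, where 2852 of 18193 genes had an unadjusted p under 0.05. Without STAT male 1 the count for STAT males was 1973, with array weights 4069, and with STAT male 1 as the lone STAT array 9. The contrasts share arrays, so their values are set side by side. ERK feedback genes had a median of 0.98 log2 for PAT minus control and −0.23 for STAT minus control, and immediate early genes 0.46 and −0.40. Cholesterol genes had 0.27 and −0.19, apolipoproteins 0.07 and −0.35, and brush border enzymes 0.01 and −0.50. Cell division genes had −0.14 and 0.23, and smooth muscle markers −0.22 and 0.29.

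In female mice the same contrast, PAT against STAT, called 157 genes (0.863%), and 64 of them were called with the same sign in males (40.8% of the 157 and 4.04% of the 1585). Of the 1585 genes called in males 69.8% had the same sign in females, against 50.7% of all genes. The difference between the sexes was called for 3 genes (0.0165%), all of them lower in males: Kif20b (−0.87 in males and 0.40 in females), Ncapg (−0.45 and 0.60), which act in cell division, and Ndufa5 (−0.33 and 0.30), a subunit of respiratory complex I. This count varied with the arrays: it was 1396 without STAT male 1, 226 without PAT male 5, 50 without PAT male 4 and 0 without any 1 of the other 5. The cell division list had a median of −0.40 in males and 0.51 in females, where 0 of its 29 members were called. ERK feedback genes had 5 of 17 higher in females with a median of 0.80, immediate early genes 0 of 20 with 0.44, and cholesterol genes 0 of 21 with 0.10.

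Lists with no call (0 members) in males included MHC class II, immunoproteasome and MHC class I genes, respiratory chain subunits (a list that does not hold Ndufa5), choline and methyl metabolism (a list that does not hold Chka), and markers of tuft, T, B and plasma cells, macrophages, endothelium, exocrine pancreas and red blood cells. Their medians lay between −0.17 and 0.13 log2. Interferon response genes had 1 of 34 higher, Oasl1 (1.59 ± 0.33), and 2 lower, Irf1 (−0.79 ± 0.20) and Irgm1 (−0.41 ± 0.13). These counts were near the shares over all genes, 3.47% higher and 5.24% lower, and the list median was −0.02. The call of Oasl1 was lost without STAT male 2 or 3, and that of Irf1 without STAT male 1 or 3. That of Irgm1 was lost in 6 of the 8 left-out fits. The level of the interferon list was 0.638 in PAT male 5 and −0.411 to 0.059 in the other 7 arrays. Goblet cell markers had 4 of 18 lower, Ccl9 (−0.51 ± 0.14), Ccl6 (−0.41 ± 0.10), Spink4 (−0.40 ± 0.10) and Galnt12 (−0.30 ± 0.09), and the main mucus genes were not among them. The goblet list had 0 lower calls without STAT male 2, 0 without STAT male 3 and 0 with the beta-actin covariate. The calls of Ccl9 and Galnt12 were each lost in 5 of the 8 left-out fits.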

How the data were processed

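Total RNA of terminal ileum was hybridised to 1-colour Affymetrix arrays. The authors deposited log2 values that, per the submitters' processing notes, came from RMA (affy). Versions were not given in the sources used here. RMA corrects background and sets all arrays to 1 distribution, so values show relative change. Arrays give no count of molecules, and their number limits the precision.

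Of 45101 probe sets, 34945 had 1 gene symbol in the platform annotation, 932 had several and 9160 none. For each of 18193 genes, the probe set that was brightest on average in the 22 arrays was used. The 6 groups were fitted together with limma 3.58.1 in R 4.3.3 (lmFit and eBayes, no covariate), and genes were called at a Benjamini-Hochberg adjusted p under 0.05. ± is the standard error of a fitted log2 difference, PAT male minus STAT male. Of 88 named genes with several probe sets, 69 had all of them in 1 direction and 0 had another called the opposite way. Single values were tested with exact permutation tests in scipy 1.17.1. The fit was tested on simulated data.

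Genes were named by rule: the 15 largest rises and the 15 largest falls among called genes with a group mean of at least 6, up to 4 called members of each list, further list members to show spread, the 5 strongest sex differences, and the 5 largest changes each way against STAT male 1 alone. Members and lists were chosen with earlier results of these data known. Lists are described by counts and medians beside all genes, with no test of a list. The promoter motifs were chosen after the values were seen. Alternatives covered probe set choice, a level filter, scaling, arrays fitted, array weights, integrity covariates and arrays left out.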

Additional observations from a re-analysis of the deposited data

Results flagged for a closer look

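Among the 5 PAT males, 12 of 188 genes examined had 1 array far from the other 4 by Dixon's criterion, and chance gives such an array in about 1 of 20 groups. In PAT male 5 Ereg (10.28), Errfi1 (10.30), Phlda1 (9.33), Spry2 (8.28) and Dach1 (6.26) were low, and Nr0b2 (9.20), Pax5 (5.78) and Psma1 (11.34) were high. In PAT male 4 Ccl9 (9.16) and Ciart (6.56) were high and Creb3l3 (11) was low. In PAT male 3 Saa3 (6.54) was low. Groups of 3 arrays, such as the STAT males, are too small for this criterion.

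The difference between PAT and STAT differed between the sexes in 3 genes by the interaction in limma. The male minus female difference was −1.27 log2 for Kif20b, −1.05 for Ncapg and −0.62 for Ndufa5, and in 5 of the 8 fits that left out 1 array there were 0 such genes.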

How the results depend on the processing

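No paired analysis was possible because the numbers in the array titles are shared by no 2 arrays, so no PAT array has a partner among the STAT arrays. The count of 1585 called genes became 2636 with every probe set tested on its own, 153 with only the 8 arrays, 908 with only the 13 male arrays, 4741 with array weights, 199 with the beta-actin covariate and 62 without STAT males 2 and 3. Leaving out 1 array gave 254 to 2847. Averaged probe sets, a mean of at least 6, quantile normalization, centring, the Gapdh covariate and a trended, robust prior gave 1224 to 1877. The 3 genes of the sex difference became 0 with averaged or with all probe sets, quantile normalization or either integrity covariate, 1 with centring or without STAT males 2 and 3, 2723 with array weights and 0 to 1396 with 1 array left out. The 8-array fit takes its spread from fewer arrays, all of them PAT or STAT males. The cause of the change in count was not tested for any setting.

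Of the 140 called genes named, 35 kept their call in the 8-array fit and 29 with the beta-actin covariate. In 82 the unadjusted exact permutation p was under 0.05. With 5 against 3 arrays this means only that PAT and STAT arrays did not overlap, as in 11.6% of all genes. The 140 genes were called from these same arrays, so their share is no separate support. Signs turned without STAT males 2 and 3 for Alas1 (−0.01), Apoa1 (−0.02), Dach1 (0.15), Hba-a1 (−0.03), Lgr5 (0.10), Olfm4 (0.19), Plin3 (−0.07), Slc3a1 (−0.01), Smoc2 (0.02) and Adipoq (−2.72). With 1 array left out the difference ranged from −1.86 to 0.27 for B3galt5, −1.71 to 0.28 for Mal, −2.14 to 0.02 for Saa3, −2.10 to 0.33 for Sptssb, −2.24 to 0.29 for Aqp8, −2.26 to 1.75 for Car1 and −1.40 to 1.71 for Adipoq, and was above 0 without STAT male 1. Signs turned with array weights for Mal (0.01), Sptssb (0.04) and Car1 (1.55). With the beta-actin covariate Hba-a1 (−0.00), Jun (−0.13) and Adipoq (−1.21) turned. Adipoq also turned with the Gapdh covariate (−0.55) and Cela3b with averaged probe sets (−0.03). The Gapdh integrity difference ranged from −0.10 to 0.01. The number of arrays limits the precision.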

Other observations

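Further genes of absorption and metabolism were higher in PAT males. Creb3l3, a membrane-bound factor that drives lipid genes, read 11.67, 11.49, 11.63, 10.996 and 11.64 log2 in PAT males 1 to 5 against 10.71, 8.95 and 9.60 in STAT males 1 to 3 (1.73 ± 0.29, adjusted p = 0.0013 by limma), with control males at 10.40 to 10.73, and its call held whichever array was left out. Hk2, the inducible hexokinase, read 9.85 to 11.46 against 9.31, 8.45 and 8.40 (1.81 ± 0.42), and its call was lost without STAT male 2 or 3. Rbp2, which carries retinol in enterocytes, was 1.62 ± 0.38 higher, but 0.27 against STAT male 1 alone. Creb3l3, Rbp2, Apoa4 and Fgf15 were the 4 calls among 13 genes of the list named for the jejunum, although Fgf15 is best known from the ileum. The transferrin receptor Tfrc read 12.74 to 13.20 against 12.40, 12.54 and 12.43 (0.50 ± 0.11), with its call lost without STAT male 3, and in females it was 0.64 higher (adjusted p = 0.016 by limma).

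Of 18 tight junction genes, Cldn4 (1.33 ± 0.41) and Cgn (0.31 ± 0.10) were higher and Cldn8 was lower (−0.65 ± 0.14). Over all genes 3.47% were called higher and 5.24% lower. Of 10 Paneth cell markers, Nupr1 and Cd24a (−0.42 ± 0.11) were lower, and of 10 fat cell markers Lipe was higher (0.69 ± 0.21). In the clock list Bhlhe40 and Ciart (0.47 ± 0.12) were the 2 calls among 18. Of 17 glucocorticoid-responsive genes the 3 calls were Dusp1, Errfi1 and Cdkn1a, which belong to groups described above. The calls of Cldn4, Cgn, Cldn8, Nupr1, Cd24a, Lipe and Ciart were lost without STAT male 2 and without STAT male 3. Those of Cldn4, Cgn, Nupr1 and Lipe were also lost without 1 or more of the PAT males.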
